A study of Rattus norvegicus with 9 samples.

Results

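The neurotrophins are secreted survival factors that bind receptors on nerve cells and on some epithelial and glial cells. Their genes and receptor genes were followed here in the vestibular sensory epithelium of rats exposed to an ototoxic compound. The set held 5 genes, found by their symbols among the 32883 genes of the deposited table. It comprised the ligand genes Bdnf and Ntf3, the tyrosine kinase receptor genes Ntrk2 and Ntrk3, and Ngfr, the gene of the p75 receptor. All 5 genes passed the filter on low counts, although Ntf3 was near the lowest visible level, and 15517 genes in all were tested.

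The compound, 3,3′-iminodipropionitrile (IDPN), damages vestibular hair cells (HCs), and male Long-Evans rats received it at 20 mM in their drinking water for 3 weeks (IDPN-3wk) or 7 weeks (IDPN-7wk). Control rats received no IDPN, were euthanized at either time, and formed 1 Control group that served both comparisons. There were 3 libraries per group, each from 1 rat whose cristae and utricles were pooled, so HCs, supporting cells, nerve endings, glia and stroma were measured together. The titles of the 3 Controls share a code, of unstated meaning, that no treated rat carries, so that code and treatment cannot be told apart. In such bulk RNA, fewer cells of a type and less RNA per cell cannot be told apart. The deposited table holds estimated counts per gene, and levels are given here in CPM, which puts libraries of different depth on 1 scale (TMM normalization). Library totals ran from 31100118 to 46018385 counts, and 3 counts, taken as the lowest visible level, corresponded to 0.0652 to 0.0965 CPM. PCR copies carried no molecular identifier, so this level covers counting error only.

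At equal depth, 15387 to 15498 genes were detected in IDPN-3wk replicates 1 and 2 and Control replicate 3, against 16834 to 17312 in the other 6 libraries. The marker lists of the epithelium were detected. The summed level of 11 HC markers was 2800 to 3220 CPM in Control rats, that of 10 supporting cell markers 14300 to 14700 CPM, and that of 9 Schwann cell markers 9630 to 12100 CPM. The 9 afferent neuron markers summed to 94.3 to 116 CPM. The cell bodies of these neurons lie in the vestibular ganglion, outside the dissected epithelium.

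Each neurotrophin is made as a precursor, cleaved, and released to act on nearby cells. BDNF, the product of Bdnf, binds TrkB, the product of Ntrk2. NT-3, the product of Ntf3, binds mainly TrkC, the product of Ntrk3, and all neurotrophins and their precursors can bind p75. In the developing inner ear, BDNF from HCs and supporting cells is required for vestibular afferent neurons to survive and innervate the epithelium. Ntrk2 and Ntrk3 also produce truncated receptors that lack the kinase, which gene counts cannot separate from the full-length forms.

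The Bdnf gene is read from several start sites, and the counts sum over all of them. RefSeq lists 6 Bdnf promoter windows of 300 bases (250 before the start and 50 after it) in the GRCr8 assembly, all on the + strand, and 3 for Ntf3. Ntrk2, Ntrk3 and Ngfr are not among the windows used here. The counts themselves were made on another assembly, Rnor6.0. The 250 bases before 2 of the Bdnf starts are shown because they differ in a feature that Bdnf is known for, control by cyclic AMP response element (CRE) sites. Capitals mark the core letters of such a site, CGTCA.
Bdnf, most upstream start, chr3:116619383-116619632: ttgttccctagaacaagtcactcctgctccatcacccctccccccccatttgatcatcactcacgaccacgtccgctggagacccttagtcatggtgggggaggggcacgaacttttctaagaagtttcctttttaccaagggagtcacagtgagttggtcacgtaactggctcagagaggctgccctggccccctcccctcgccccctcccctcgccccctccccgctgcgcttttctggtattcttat
Bdnf, start with the core letters, chr3:116637608-116637857: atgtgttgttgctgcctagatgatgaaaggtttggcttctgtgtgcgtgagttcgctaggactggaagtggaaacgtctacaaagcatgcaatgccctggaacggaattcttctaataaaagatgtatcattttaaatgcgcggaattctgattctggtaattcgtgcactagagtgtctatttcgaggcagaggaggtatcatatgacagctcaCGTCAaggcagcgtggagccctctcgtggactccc
The letters CGTCA were searched on both strands and occurred in 1 of the 6 Bdnf windows, 216 bases from its beginning, and in 0 of the 3 Ntf3 windows. They occur in 21.2% of 33469 RefSeq rat promoter windows of the same length. The whole CRE, TGACGTCA, which contains these letters, occurs in 1.83% of the windows and in 0 of the Bdnf and Ntf3 windows. These matches describe letters only, and the gene counts do not show which start was used.

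Among the 5 genes, Bdnf, Ntrk2 and Ntrk3 were lower after IDPN, Ngfr was not called in either direction, and Ntf3 stayed near the lowest visible level. A gene was called differentially expressed (DEG) when it changed by more than 1.5-fold with an adjusted p below 0.05 in edgeR's quasi-likelihood test of all 9 libraries. At 3 weeks 2 of the 5 genes, Bdnf and Ntrk2, were DEGs, against 1.65% of all genes tested. At 7 weeks 3 of the 5, Bdnf, Ntrk2 and Ntrk3, were DEGs, against 5.13% of all genes. All of these calls were downregulated, a direction called in 1.21% of all genes at 3 weeks and in 3.13% at 7 weeks. DESeq2 called 3 of the 5 at each time, against 4.21% and 7.09% of all genes. Between IDPN-7wk and IDPN-3wk rats edgeR called 0 of the 5, against 0.483% of all genes, with 2 of the 5 at an unadjusted p under 0.05. DESeq2 called 1 of the 5, against 2.98% of all genes. Bdnf and Ntrk3 are among the genes that the study lists as lower in all its comparisons, these libraries included. The set was chosen with earlier results of these data known, so its shares of DEGs are not independent evidence.

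Bdnf (ENSRNOG00000047466) had the largest fold reduction of the called members at both times. Its level was 118, 125 and 113 CPM in Control replicates 1, 2 and 3. It was 49.0, 58.8 and 57.1 CPM in the IDPN-3wk rats and 41.3, 33.5 and 43.6 CPM in the IDPN-7wk rats. Every IDPN-3wk value lay below every Control value, and every IDPN-7wk value lay below every IDPN-3wk value.

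The mean of Bdnf thus went from 118 ± 5.90 CPM (SD, n = 3) to 55.0 ± 5.27 and 39.5 ± 5.26 CPM, or to 46.4% and 33.3% of Control. In edgeR the log2 fold change was -1.11 at 3 weeks (SE 0.129, adjusted p = 0.00297), a 2.15-fold reduction. At 7 weeks it was -1.58 (SE 0.130, adjusted p = 0.000150), a 3.00-fold reduction. Both calls were made under all 17 alternative settings, including those that left out each library in turn.

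From 3 to 7 weeks Bdnf differed by -0.48 on the log2 scale (SE 0.128, 95% interval -0.76 to -0.19). In edgeR its p was 0.00384 before and 0.155 after adjustment, so it did not pass the test. DESeq2 gave an adjusted p of 0.0147 (-0.48), below the threshold, but the fold stayed under 1.5, and it was not called under any of the 17 alternatives. The groups did not overlap, as in 21.0% of all genes tested in that comparison. The 3-week difference of Bdnf in log2(CPM + 1) was -1.06 among libraries with fewer detected genes (2 IDPN-3wk against 1 Control) and -1.07 among the others (1 against 2), values with no error of their own. The same applies to such values of the other genes.

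**Figure D1:**
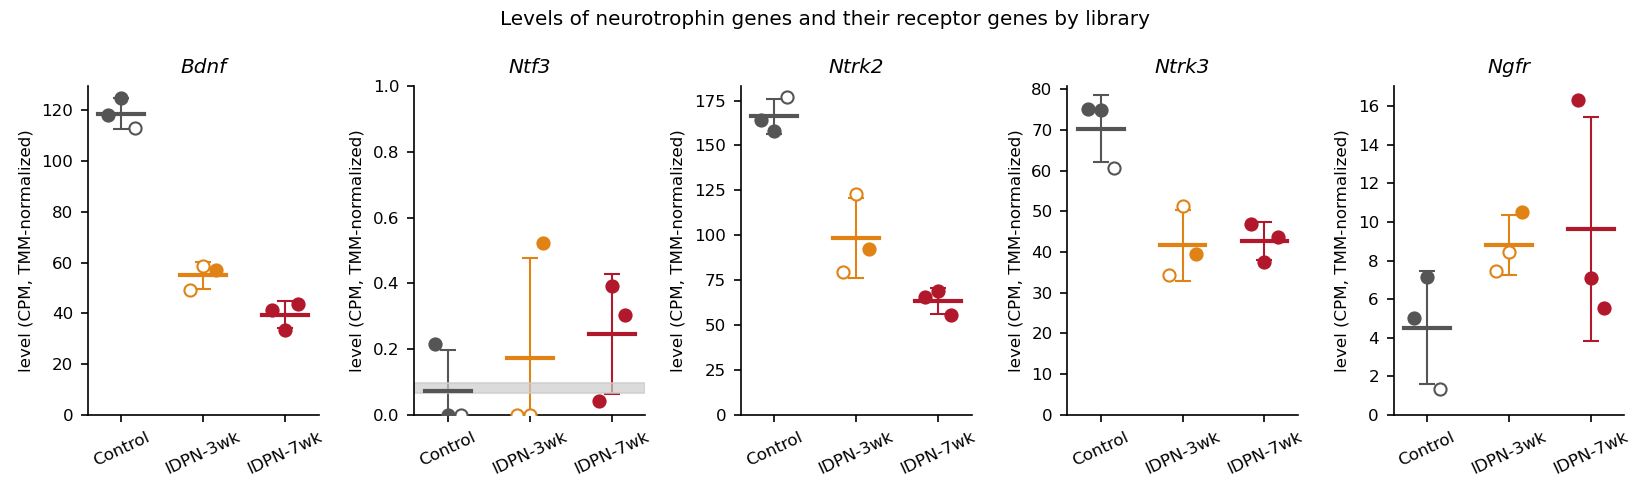
Level of each gene in CPM after TMM normalization, by group, on linear axes that start at 0 and differ between panels. Points are libraries (open points are the 3 libraries with fewer detected genes), and bars and whiskers are the mean and SD of 3 rats. The grey band in the Ntf3 panel is the level of 3 counts. The IDPN points of Bdnf, Ntrk2 and Ntrk3 lie below all Control points, while those of Ngfr and Ntf3 scatter.

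Ntf3 (ENSRNOG00000019716), the gene of NT-3, could not be followed at this depth. It had 8, 0 and 0 counts in Control replicates 1, 2 and 3, 0, 0 and 17 counts in the IDPN-3wk rats and 2, 19 and 12 counts in the IDPN-7wk rats. Only 4 of the 9 libraries were above 3 counts, so no fold change is given. In edgeR the adjusted p was 0.823 at 3 weeks, 0.729 at 7 weeks and 0.947 between them. A change in Ntf3 was therefore not detectable.

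Ntrk2 (ENSRNOG00000018839), the gene of the BDNF receptor TrkB, was a DEG at both times. Its level was 164, 158 and 177 CPM in Control replicates 1, 2 and 3. It was 79.4, 123 and 92.5 CPM in the IDPN-3wk rats and 65.8, 68.9 and 55.4 CPM in the IDPN-7wk rats. The 3 groups did not overlap, although the IDPN-3wk rats spread more widely than the others, with a coefficient of variation of 22.9% against 5.91% in Control rats.

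The mean of Ntrk2 was 166 ± 9.82 CPM in Control, 98.4 ± 22.6 CPM after 3 weeks and 63.4 ± 7.06 CPM after 7 weeks (SD, n = 3), the last being 38.1% of Control. The log2 fold change in edgeR was -1.39 at 7 weeks (SE 0.160, adjusted p = 0.000878), a 2.62-fold reduction that was called under all 17 alternatives. At 3 weeks it was -0.76 (SE 0.158, adjusted p = 0.0423), a 1.69-fold reduction. The 3-week call was close to the threshold and held under 6 of the 17 alternatives. With single libraries left out it held only without IDPN-3wk replicate 2 (log2 fold change -0.95, adjusted p = 0.0155). Without any other single library, Controls and IDPN-7wk included, the adjusted p lay between 0.0661 and 0.129, and the log2 fold change between -0.62 and -0.79. Over all genes, fits that left out a library called 0.475% to 2.77% at 3 weeks, against 1.65% with all libraries. At 7 weeks they called 2.73% to 6.12%, against 5.13%.

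From 3 to 7 weeks Ntrk2 differed by -0.63 on the log2 scale (SE 0.158, 95% interval -0.99 to -0.28), with an edgeR p of 0.00242 and an adjusted p of 0.133. DESeq2 called this difference (-0.64, adjusted p = 0.00962). Among libraries with fewer detected genes the 3-week difference of Ntrk2 in log2(CPM + 1) was -0.83, and among the others it was -0.79.

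Ntrk3 (ENSRNOG00000018674), the gene of the NT-3 receptor TrkC, was at similar levels at both times of exposure. Its level was 75.1, 74.9 and 60.7 CPM in Control replicates 1, 2 and 3. It was 34.3, 51.2 and 39.4 CPM in the IDPN-3wk rats and 46.8, 37.6 and 43.6 CPM in the IDPN-7wk rats. All IDPN values lay below all Control values, and the 2 IDPN groups overlapped.

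The mean of Ntrk3 was 70.2 ± 8.22 CPM in Control, 41.6 ± 8.68 CPM after 3 weeks and 42.7 ± 4.64 CPM after 7 weeks (SD, n = 3), or 59.3% and 60.8% of Control. The log2 fold change was -0.75 at 3 weeks (SE 0.170, edgeR adjusted p = 0.0596), which did not pass the test, and -0.72 at 7 weeks (SE 0.170, edgeR adjusted p = 0.0347), which did. The 3-week difference was called under 4 of the 17 alternatives, DESeq2 (-0.75) among them. Ntrk3 is also among the genes that the study lists as lower in all its comparisons, these libraries included. The 7-week call was lost without Control replicate 1 or 2 or any of the 3 IDPN-7wk replicates, with adjusted p between 0.0772 and 0.137. The difference between 7 and 3 weeks was 0.04 (SE 0.169, edgeR adjusted p = 0.958), with a 95% interval of -0.34 to 0.41. Among libraries with fewer detected genes the 3-week difference of Ntrk3 in log2(CPM + 1) was -0.52, and among the others it was -0.91.

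Ngfr (ENSRNOG00000005392), the gene of the p75 receptor, which glia raise after nerve injury, was at low and scattered levels. It was 5.04, 7.17 and 1.35 CPM in Control replicates 1, 2 and 3. It was 7.47, 8.45 and 10.5 CPM in the IDPN-3wk rats and 16.3, 7.07 and 5.52 CPM in the IDPN-7wk rats. The lowest value was that of Control replicate 3 and the highest that of IDPN-7wk replicate 1. The IDPN-3wk rats lay above all Controls, and the IDPN-7wk rats overlapped with them.

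The log2 fold change of Ngfr was 0.96 at 3 weeks (SE 0.571, 95% interval -0.31 to 2.24, edgeR adjusted p = 0.450) and 1.09 at 7 weeks (SE 0.571, 95% interval -0.18 to 2.36, edgeR adjusted p = 0.342). Neither passed the test here or under any alternative, and the intervals include both no difference and a rise of over 1.5-fold. Without Control replicate 3 the 3-week value was 0.53 and the 7-week value 0.66, and without IDPN-7wk replicate 1 the 7-week value was 0.48. Among libraries with fewer detected genes the 3-week difference in log2(CPM + 1) was 1.93, and among the others it was 0.72.

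No IDPN-3wk rat lay within the Control range for 4 of the 5 genes, all but Ntf3, and no IDPN-7wk rat for 3 of the 5, Bdnf, Ntrk2 and Ntrk3. In all genes tested this held for 19.6% at 3 weeks and for 34.3% at 7 weeks. The set was chosen with earlier results known, so these counts are not independent evidence either.

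**Figure D2:**
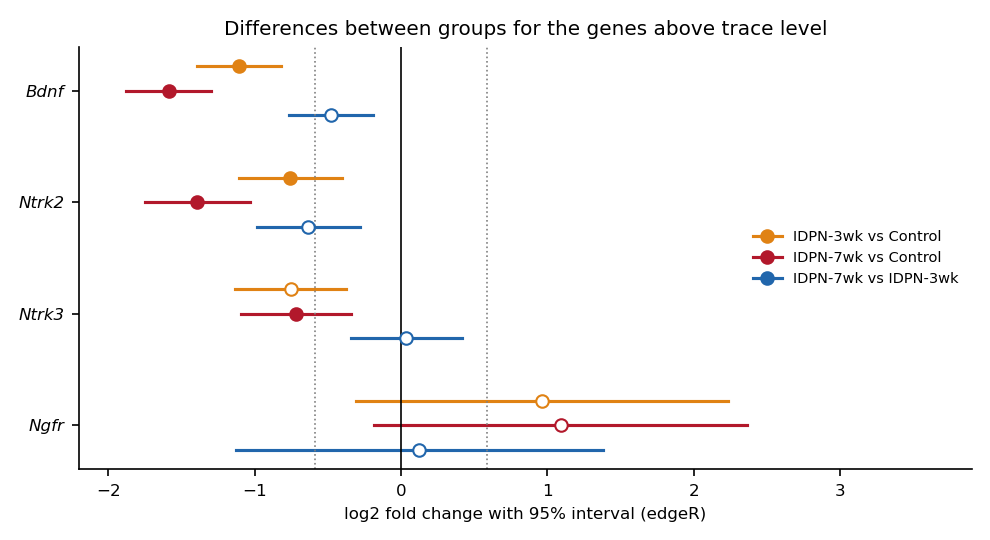
Log2 fold change (horizontal axis) with its 95% interval from edgeR for the 4 genes above trace level in the 3 comparisons. Filled points are DEGs, open points are not, and dotted lines mark a 1.5-fold change. Bdnf and Ntrk2 are filled at both times against Control, Ntrk3 at 7 weeks, and the intervals of Ngfr span 0.

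Ratios within a library depend little on its scaling and were used to set the ligand gene against the receptor genes. A ratio of CPM between genes of different length is not a ratio of their molecules, so only its difference between groups is described. There were 19 ratios in 3 comparisons, 57 in all. All but those of Bdnf and Ntrk3 to HC markers and of Ngfr to Schwann cell markers were chosen after the values were seen. With 3 rats per group, the smallest two-sided p of an exact permutation test is 0.1, and the smallest p adjusted over the 57 was 0.158, so none of them passed.

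The log2 ratio of Ntrk2 to Ntrk3 was 1.24 ± 0.253 in Control, 1.22 ± 0.0327 after 3 weeks and 0.56 ± 0.266 after 7 weeks (SD, n = 3). All 3 IDPN-7wk rats lay below all rats of the other groups, by -0.68 from Control and by -0.66 from IDPN-3wk on average, each with the smallest p that the exact permutation test can give, 0.1. Between IDPN-3wk and Control rats the ratio of the receptor genes differed by less than the spread (-0.02, exact permutation p = 1.0).

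The log2 ratio of Bdnf to Ntrk2, its receptor gene, was -0.49 ± 0.154 in Control, -0.81 ± 0.213 after 3 weeks and -0.67 ± 0.339 after 7 weeks (SD, n = 3). The 7-week difference of -0.19 was within the spread (exact permutation p = 0.4). At 3 weeks the groups did not overlap and differed by -0.32 (exact permutation p = 0.1), or by -0.20 without IDPN-3wk replicate 2. The log2 ratio of Bdnf to Ntrk3 was 0.75 ± 0.121 in Control, 0.41 ± 0.183 after 3 weeks and -0.11 ± 0.0976 after 7 weeks, with no overlap between any of the groups (exact permutation p = 0.1 each).

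The cell type markers moved as well, and their part in the results was not tested. Of 11 HC markers, 3 were DEGs at 3 weeks and 8 at 7 weeks, all lower, against 1.65% and 5.13% of all genes. At 3 weeks 10 of the 11 were lower and 1 was higher, and at 7 weeks all 11 were lower. Their median log2 fold changes were -0.47 and -1.02. Among them Ptprq, a phosphatase of the hair bundle, went from 958 ± 187 CPM to 310 ± 36.3 and 341 ± 49.1 CPM, and Otof, the calcium sensor of the HC synapse, from 703 ± 75.6 CPM to 353 ± 52.5 and 351 ± 23.8 CPM. Myo6, the next by level, went from 533 ± 16.1 CPM to 364 ± 11.7 and 382 ± 47.2 CPM and was not a DEG at either time. Its edgeR adjusted p was 0.0208 and 0.0163, but its reductions of 1.46-fold and 1.39-fold stayed under the 1.5-fold threshold. The study names Ptprq among the genes lower in all its comparisons, these libraries included, so its fall is not independent evidence. The summed level of the 11 HC markers was 1380 to 1760 CPM at 3 weeks and 1380 to 1590 CPM at 7 weeks, below the Control range.

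Relative to the mean of the HC markers, Bdnf differed by -0.44 on the log2 scale at 3 weeks, where the groups overlapped (exact permutation p = 0.2). The ratio was lower in the libraries with fewer detected genes. It was -0.93 and -0.84 in these against -0.28 in IDPN-3wk replicate 3, and -0.43 against -0.13 and -0.18 in Control. The part of the library set in the 3-week difference was not tested. At 7 weeks Bdnf was lower by -0.51 relative to the HC markers, with no overlap (exact permutation p = 0.1). Ntrk2, set against the same list after the values were seen, differed by -0.11 at 3 weeks and -0.32 at 7 weeks (exact permutation p = 0.9 and 0.1). Ntrk3 differed by -0.09 and 0.36 (exact permutation p = 0.6 and 0.1). For Ntrk2 at 7 weeks the groups nearly touched (0.157 in IDPN-7wk replicate 2 against 0.159 in Control replicate 2), and the difference was -0.17 without IDPN-7wk replicate 3. The 7-week difference of Ntrk3 was 0.20 without Control replicate 3.

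All 5 type I HC markers detected were DEGs and lower at both times, with medians of -1.51 and -1.79, but the study chose part of this list on these libraries, so its fall is not independent evidence. Relative to them Bdnf was higher by 0.66 at 3 weeks and 0.58 at 7 weeks on the log2 scale (exact permutation p = 0.1 each). The study also names Bdnf and Ntrk3 among the genes lower in all its comparisons, so this ratio sets genes chosen alike against each other. It differed by marker: at 7 weeks the log2 fold change was -3.21 for Kcnab1, -2.73 for Adam11 and -1.58 for both Kcna10 and Bdnf.

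Supporting cell markers had 1 of 10 DEGs at 3 weeks and 5 of 10 at 7 weeks, all lower, against 1.65% and 5.13% of all genes. The medians of the list were -0.29 and -0.64. Their summed level was 8840 to 11000 CPM at 3 weeks and 6120 to 8550 CPM at 7 weeks. Most of the Control sum was Otog, at 8470 ± 116, 4670 ± 1090 and 3530 ± 989 CPM in the 3 groups, so the sum largely follows this gene. Otog was a DEG at 7 weeks only. Of the 10 markers, 10 were lower at 3 weeks, and 9 were lower and 1 higher at 7 weeks. Relative to this list Bdnf was lower by -0.69 and -0.87, and Ntrk2 by -0.37 and -0.69, with no overlap with Control at either time (exact permutation p = 0.1 each). Ntrk3 was lower by -0.35 at 3 weeks (exact permutation p = 0.1) and differed by -0.01 at 7 weeks (exact permutation p = 1.0).

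Afferent neuron markers had summed levels of 86.4 to 90.0 CPM at 3 weeks and 88.3 to 105 CPM at 7 weeks. Sncg was the 1 DEG among the 9 (11.1%, against 5.13% of all genes), higher at 7 weeks (log2 fold change 0.77, edgeR adjusted p = 0.0359). Gap43, a growth cone protein gene named after its values were seen, went the other way without passing the test, with 367 to 511 counts in Control, 0 to 45 counts in IDPN-3wk and 0 to 54 counts in IDPN-7wk rats (edgeR adjusted p = 0.164 and 0.0820). Relative to these markers Bdnf was lower by -0.86 and -1.39, Ntrk2 by -0.54 and -1.20, and Ntrk3 by -0.52 at both times, with no overlap with Control (exact permutation p = 0.1 each). Several of these markers had Control means near or under 1 CPM, the lowest being Nefh at 0.213 CPM. Each weighs equally in the mean of log2(CPM + 1), where adding 1 damps their changes, so this list measures nerve endings poorly.

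Schwann cell markers had 1 of 9 DEGs at 3 weeks and 4 of 9 at 7 weeks, all lower, against 1.65% and 5.13% of all genes. The medians of the list were -0.25 and -1.08. Mbp, a protein of the myelin sheath, went from 1990 ± 309 CPM to 1680 ± 247 and 897 ± 358 CPM. The summed level was lowest in IDPN-7wk replicate 1, at 3280 CPM against 6770 and 6870 CPM in the other two, and this rat had the highest Ngfr. Relative to the Schwann cell markers Ngfr was higher by 1.26 at 3 weeks and 2.08 at 7 weeks on the log2 scale, with no overlap with Control (exact permutation p = 0.1 each). The 3-week value was 0.76 without Control replicate 3, and the 7-week value was 1.37 without IDPN-7wk replicate 1. From Control to 3 and 7 weeks, the summed level was 362 to 393, 293 to 353 and 367 to 457 CPM for type II HCs, and 650 to 710, 617 to 845 and 587 to 731 CPM for mesenchyme. It was 149 to 206, 176 to 207 and 153 to 201 CPM for pericytes, and 343 to 384, 370 to 477 and 310 to 481 CPM for endothelium. Most of the type II HC sum was Anxa4, at 339 ± 15.2, 310 ± 25.4 and 377 ± 41.3 CPM. Calb2, of the same list, was a DEG at both times (edgeR adjusted p = 0.0353 and 0.0250). It went from 19.1 ± 0.686 CPM to 6.39 ± 0.290 and 7.15 ± 3.12 CPM. The 8 macrophage markers summed to 64.4 to 107 CPM in Control, 45.3 to 135 CPM at 3 weeks and 192 to 248 CPM at 7 weeks. The mesenchyme, pericyte, endothelium and macrophage lists had 0 DEGs at 3 weeks and 1 each at 7 weeks. These were Lum and Kcnj8, lower, and Cdh5 and C1qb, higher. Over all genes 1.65% and 5.13% were DEGs.

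**Figure D3:**
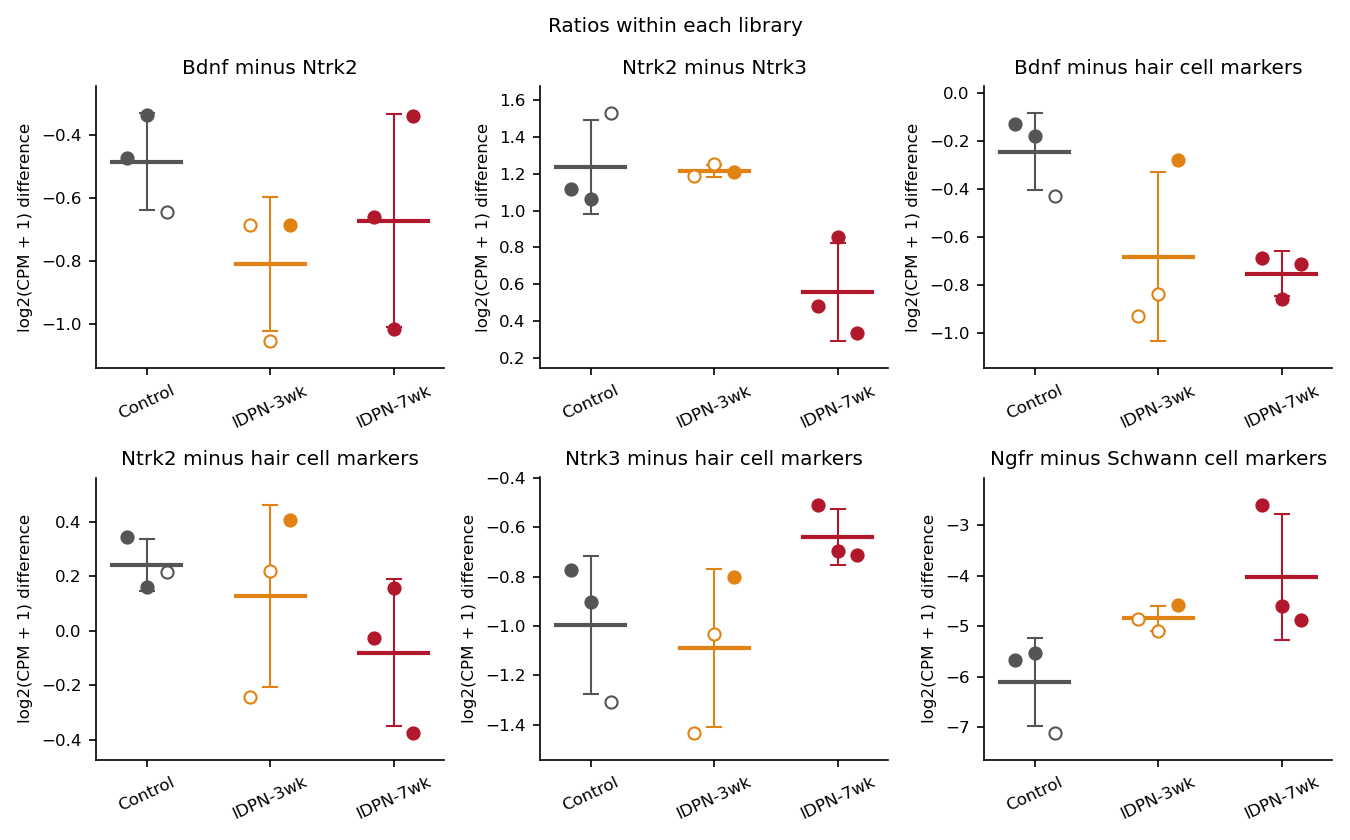
Difference in log2(CPM + 1) between a gene and another gene, or between a gene and the mean of a marker list, in each library, by group. Points, bars and whiskers are as in the plot of levels, and vertical axes differ between panels and do not start at 0. The 3 IDPN-7wk points lie below the others for Ntrk2 minus Ntrk3, while for Bdnf minus Ntrk2 the IDPN-7wk points overlap with both other groups.

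The genes with the profile most like each DEG of the set were named by the mean absolute difference of centred log2(CPM + 1) over the 9 libraries, among 11351 genes of at least 5 CPM on average. For Bdnf they were Kcna10, a potassium channel gene of the type I HC list (0.0959), Dner (0.106), Pcp4 (0.117), Nek2 (0.143) and Rem2 (0.146). Their log2 fold changes ran from -0.87 to -1.21 at 3 weeks and from -1.38 to -1.63 at 7 weeks. Ntrk2 ranked 14 in this list (0.184), and the median gene was at 0.631.

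For Ntrk2 the most similar were Susd4 (0.123), Tdrd7 (0.132), Gtdc1 (0.147), the laminin chain gene Lama1 (0.153) and Kcnj8, a potassium channel gene of pericytes (0.155), with Bdnf at rank 21. For Ntrk3 they were Atxn1 (0.0610), Dhrs1 (0.0910), Pvalb, a calcium-binding protein gene (0.0965), Pcsk5 (0.0968) and Amigo1 (0.0971). Bdnf and Ntrk2 ranked 3032 and 1539 in the list of Ntrk3.

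The wider neurotrophin pathway was described by 101 genes in 6 lists, of which 97 were found in the table and 88 were tested. At 3 weeks 5 of the 88 were DEGs, all lower (5.68%, against 1.65% of all genes). Leaving out single libraries gave 0 to 5, with 0 left without Control replicate 1 or without Control replicate 2. In those fits 0.487% and 0.475% of all genes were called. At 7 weeks 7 of the 88 were DEGs, 6 lower and 1 higher (7.95%, against 5.13% of all genes). The median log2 fold change over the 88 was 0.10 and 0.02, against -0.000467 and 0.00970 over all genes tested. Between the 2 IDPN groups edgeR called 0 of the 88 (0.483% of all genes), with 19 at an unadjusted p under 0.05. DESeq2 called 4 of them (2.98% of all genes).

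Ntf4, the gene of NT-4, which also binds TrkB, had at most 9 counts in any library and was not tested.

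Among the sorting receptors that carry neurotrophins, Sort1, the gene of sortilin and co-receptor of p75 for precursors, was at 204 ± 30.4, 263 ± 84.0 and 202 ± 50.4 CPM in the 3 groups (edgeR adjusted p = 0.510 and 0.988). Sorcs1, of the same receptor family, fell from 44.9 ± 13.4 CPM to 12.5 ± 2.39 and 9.71 ± 4.02 CPM, the log2 fold change being -1.84 (SE 0.349, edgeR adjusted p = 0.0286) at 3 weeks and -2.21 (SE 0.353, edgeR adjusted p = 0.00525) at 7 weeks. The 7-week call held without any single library, and the 3-week call was lost without any 1 Control or without IDPN-3wk replicate 1 or 2 (adjusted p 0.0595 to 0.0922).

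Genes of precursor cleavage and secretion had 1 of 9 DEGs at 3 weeks and 3 of 9 at 7 weeks, all lower, against 1.65% and 5.13% of all genes. Pcsk5, a convertase that cleaves precursors, went from 71.2 ± 6.54 CPM to 42.1 ± 5.03 and 43.7 ± 0.929 CPM. It was lower by -0.76 and -0.71 on the log2 scale (edgeR adjusted p = 0.0174 and 0.00963). The call was lost without Control replicate 1 at both times and without Control replicate 2 at 3 weeks (adjusted p 0.0504 to 0.0870). Cpe, which encodes a carboxypeptidase and sorting receptor of secretory granules, was at 357 ± 28.5, 332 ± 89.0 and 149 ± 54.7 CPM and was a DEG at 7 weeks (-1.26, SE 0.277, edgeR adjusted p = 0.0244), a call lost without any 1 Control or without IDPN-7wk replicate 2 (adjusted p 0.0513 to 0.0750). Cadps2, which primes dense-core vesicles for release, was at 19.0 ± 7.07, 8.25 ± 3.03 and 4.66 ± 0.990 CPM. It was a DEG at 7 weeks (-2.03, edgeR adjusted p = 0.00828) and not at 3 weeks (-1.21, edgeR adjusted p = 0.119).

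Of 33 adaptors and signalling genes downstream of Trk receptors, 2 were DEGs at 3 weeks (6.06%, against 1.65% of all genes) and 1 at 7 weeks (3.03%, below the 5.13% of all genes), all lower. Pik3r1, a regulatory subunit of PI3-kinase, fell from 193 ± 19.4 CPM to 81.1 ± 29.5 and 100 ± 5.68 CPM. It was lower by -1.25 and -0.94 on the log2 scale (edgeR adjusted p = 0.0252 and 0.0379). Its 3-week call was lost without any 1 Control, IDPN-3wk replicate 1 or IDPN-7wk replicate 3, and its 7-week call without any 1 Control or any 1 IDPN-7wk rat (adjusted p up to 0.103 and 0.133). Shc4, an adaptor of the Shc family, went from 76.2 ± 4.39 CPM to 47.9 ± 7.57 and 55.7 ± 4.41 CPM and was a DEG at 3 weeks only by this test (-0.67, edgeR adjusted p = 0.0373, against -0.45 and 0.0853 at 7 weeks). Its difference between 7 and 3 weeks was 0.22 and did not pass the test (edgeR adjusted p = 0.518). The 3-week call of Shc4 held in 1 of 9 fits that left out a library, that without IDPN-3wk replicate 3.

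Of the 11 partners and effectors of p75, edgeR called 0 at either time, with 3 and 4 at an unadjusted p under 0.05, and DESeq2 also called 0. Their median log2 fold changes were 0.27 and 0.26, against -0.000467 and 0.00970 over all genes tested. Maged1 was higher at 7 weeks with an edgeR adjusted p of 0.00842 (log2 fold change 0.47), but its 1.38-fold rise stayed under the 1.5-fold threshold. At 3 weeks its edgeR adjusted p was 0.0606. Of 9 genes that respond to Trk signalling or activity, Fos, an immediate early gene, was the 1 DEG, at 7 weeks (11.1%, against 5.13% of all genes). It was 5.34, 7.24 and 3.49 CPM in Control replicates 1, 2 and 3, 11.0, 14.6 and 9.81 CPM in IDPN-3wk and 38.9, 19.6 and 22.9 CPM in IDPN-7wk rats. The 3 groups did not overlap, and the log2 fold change was 2.34 at 7 weeks (SE 0.347, edgeR adjusted p = 0.00373) and 1.14 at 3 weeks (SE 0.338, edgeR adjusted p = 0.131).

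Of 20 genes of other trophic factors and receptors, Erbb4, a receptor for neuregulins, was the 1 DEG, at both times. That is 5.0% of the list, against 1.65% of all genes at 3 weeks and 5.13% at 7 weeks. Its level was 47.1, 41.0 and 44.4 CPM in Control replicates 1, 2 and 3, 8.78, 10.4 and 8.89 CPM in IDPN-3wk and 1.89, 5.84 and 6.13 CPM in IDPN-7wk rats. The log2 fold change was -2.24 at 3 weeks (SE 0.364, edgeR adjusted p = 0.0148) and -3.26 at 7 weeks (SE 0.380, edgeR adjusted p = 0.000954). The 7-week call held without any single library, and the 3-week call was lost without Control replicate 1 or 2 (log2 fold changes of -2.32 to -2.19 over all such fits, adjusted p 0.0571 and 0.0639 where lost).

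**Figure D4:**
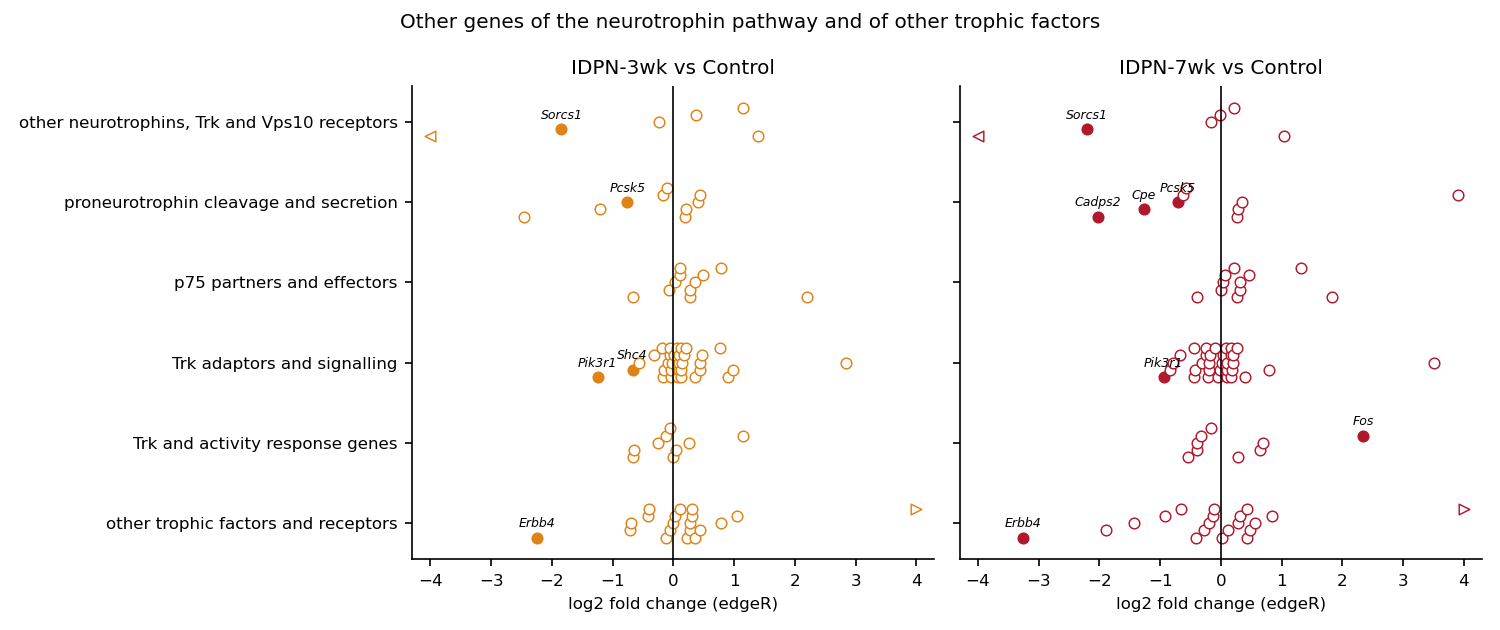
Log2 fold change (horizontal axis) of the 88 tested genes of the pathway lists (rows), at 3 weeks (left) and 7 weeks (right) against Control. Filled, named points are DEGs, and triangles are values beyond the axis, from genes near 0 counts in a group, whose fitted fold change depends on the prior count. The 5 filled points at 3 weeks are all below 0, and at 7 weeks Fos is the 1 above it.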

How the data were processed

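RNA was sequenced by SMARTseq2 from the pooled cristae and utricles of 9 rats. The authors mapped the reads to Rnor6.0 with STAR 2.5.3a and made the deposited table of estimated counts (expected counts) with RSEM 1.3.0, versions per the submitters' processing notes. The values are whole numbers without normalization, and the strand used in counting is not given in the sources used here, so reads from opposite strands of a locus may not have been told apart. RSEM shares reads that match more than 1 gene among those genes.

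Genes kept by filterByExpr were normalized by TMM and tested with edgeR 4.0.16 (R 4.3.3, limma 3.58.1) by the robust quasi-likelihood test in 1 model of the 9 libraries with group means, with Benjamini-Hochberg adjustment over the 15517 genes in each comparison. Intervals of log2 fold changes are at 95%, from the same fit, with 6 residual degrees of freedom plus the prior ones that edgeR adds (median 4.07). Ratios used log2(CPM + 1). Replicate numbers were assigned here. Replicates did not hold identical counts (lowest chi-square per gene between replicates 18.7). The pipeline was tested on simulated data.

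The members and lists were chosen with earlier results of these data known. Named were the members, DEGs of the pathway lists, Ntf4 and Sort1, at most 3 markers per list, and the 5 genes of most similar profile. Maged1 was named outside this rule, after its values were seen. Some genes that meet this rule are not reported here. Sorl1, Bex1, Crkl and Gfra1 were not found under those symbols. Alternatives were DESeq2 1.42.0, only the 2 groups compared, RLE size factors, a minimum of 10 counts in each library or no filter, a fold threshold of 2 or none, the library set (fewer detected genes or not) as a covariate, other pseudocounts (0.1 and 5 CPM), and each library left out.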

Additional observations from a re-analysis of the deposited data

How the results depend on the processing

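The calls of Bdnf against Control and of Ntrk2 at 7 weeks were made under all 17 alternatives. Ntrk2 at 3 weeks was not called with only the 2 groups compared (-0.75), with a fold change above 2 (-0.76) or with the library set as a covariate (-0.80). Ntrk2 between 7 and 3 weeks was called by DESeq2 (-0.64). Ntrk3 at 3 weeks was called by DESeq2 (-0.75), with no filter (-0.76) and with at least 10 counts (-0.76), and at 7 weeks it was not called with a fold change above 2 (-0.72). With the covariate, the differences between 7 and 3 weeks that had not been called turned negative for Ntrk3 (-0.0296), Ngfr (-0.75) and Ntf3 (-0.99). Without single libraries, the values at 3 weeks ran from -0.95 to -0.62 for Ntrk2, -0.93 to -0.63 for Ntrk3 and -4.56 to 5.75 for Ntf3. At 7 weeks Ntrk3 ran from -0.81 to -0.64, and between 7 and 3 weeks Ntrk3 ran from -0.0855 to 0.21, Ngfr from -0.49 to 0.40 and Ntf3 from -0.11 to 6.26. Apart from a fold threshold or fewer samples and genes, the cause was not tested.

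Pathway DEGs at 3 weeks numbered 5, against 10 with DESeq2, 2 with only the 2 groups compared, 3 with a fold change above 2 and 0 to 5 without single libraries (0 without Control replicate 1 or 2). Over all genes these settings called 4.21%, 0.794%, 1.02% and 0.475% to 2.77%, against 1.65% in the main fit. At 7 weeks pathway DEGs numbered 7, and 13 with DESeq2, which called 7.09% of all genes against 5.13% in the main fit. Between 7 and 3 weeks there were 0 (0.483% of all genes), with 4 by DESeq2 (2.98% of all genes) and 0 to 1 without single libraries (0.247% to 2.81%). The planned ratio of Bdnf to Ntf3 was not run, since Ntf3 was at or under 3 counts in most libraries, and Ntf3 had no value with at least 10 counts in every library. No paired analysis was possible because the replicate numbers were assigned here, and the codes in the sample titles are not shared between Control and treated rats and only 1 is shared between the IDPN groups.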
